A study of Caenorhabditis elegans with 2 samples.

Results

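The genes that encode the proteins of the small (40S) subunit of the cytosolic ribosome in Caenorhabditis elegans were examined for binding by CEH-44, a homeobox transcription factor of the CUT family. All protein-coding genes named rps- followed by a number in the Ensembl annotation of WBcel235 were taken, which gave 31 genes out of 19973 protein-coding genes. A CEH-44 peak lay before 12 of them, namely rps-1, rps-3, rps-4, rps-10, rps-11, rps-19, rps-20, rps-23, rps-24, rps-26, rps-27 and rps-28. That is 12 of the 30 rps genes with any candidate peak in the window (40%), against 3.71% of such coding genes. A gene is called bound here when the summit of a peak in the larger of the authors' thresholded lists for the series lay in a window that began 1000 bp before its most upstream annotated start and ended 200 bp after it. The strongest site was that of rps-24, and 11 of the 12 summits lay between 450 and 200 bp upstream of the start, a band drawn after the positions had been seen, which held 36.8% of the summits of all bound coding genes.

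CEH-44 binding was profiled with ChIP-seq, in which sequencing reads out the DNA that a precipitated protein carries with it, in strain RW12327, whose own ceh-44 gene on chromosome III carries TY1, EGFP and 3xFLAG sequences inserted with CRISPR (allele st12327). Both samples were whole fourth-stage (L4) larvae aged 49 hours, grown from larvae that had been starved at the first stage after bleaching, and chromatin was sheared by sonication to 200 to 800 bp and precipitated with an antibody to GFP. The 2 samples are biological replicates of 1 group. There was no second genotype, stage or treatment, so the binding can be described but not compared between conditions. Every measurement comes from a mixture of all tissues, in which strong binding in a few cells and weak binding in many cannot be told apart.

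Small-subunit proteins hold the ribosomal RNA in shape and line the channel in which messenger RNA is read. Their genes are transcribed in every growing cell, and each subunit takes up 1 copy of each protein. CEH-44 belongs to the CUX branch of CUT proteins, which carry CUT domains beside a homeodomain, and it is known mainly from the nervous system of the worm. Many worm transcripts lose their first bases when a leader RNA is spliced on, so an annotated start can lie downstream of the point where transcription begins.

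The DNA under 6 of the bound summits is printed, and stretches shared with other bound rps windows are marked. The printed sites are not the 6 strongest, since the windows of rps-26, rps-19, rps-20 and rps-10, which had higher signals than some of them, are not printed. Each run covers 101 bases centred on the summit, from 5′ to 3′ on the strand of the rps gene, on assembly ce11 (WBcel235, RefSeq genome sequence). Capitals mark stretches of at least 8 letters that also occur, on either strand, in the 101-base window of another bound rps gene. Positions are chrIV:385493-385593 (plus strand) for rps-24, chrIV:12391278-12391378 (minus strand) for rps-23, chrIII:4475604-4475704 (plus strand) for rps-1, chrIV:1659212-1659312 (plus strand) for rps-28, chrIV:11602224-11602324 (plus strand) for rps-11 and chrIII:6206397-6206497 (plus strand) for rps-3.
rps-24: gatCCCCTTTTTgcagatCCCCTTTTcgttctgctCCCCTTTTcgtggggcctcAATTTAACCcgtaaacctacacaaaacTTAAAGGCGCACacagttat
rps-23: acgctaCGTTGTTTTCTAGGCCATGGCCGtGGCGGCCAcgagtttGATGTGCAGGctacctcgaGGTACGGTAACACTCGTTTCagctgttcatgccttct
rps-1: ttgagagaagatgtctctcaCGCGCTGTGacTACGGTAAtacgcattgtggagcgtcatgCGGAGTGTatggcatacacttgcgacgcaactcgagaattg
rps-28: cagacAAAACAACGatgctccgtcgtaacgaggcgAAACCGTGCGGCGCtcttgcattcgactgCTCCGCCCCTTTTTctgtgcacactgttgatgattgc
rps-11: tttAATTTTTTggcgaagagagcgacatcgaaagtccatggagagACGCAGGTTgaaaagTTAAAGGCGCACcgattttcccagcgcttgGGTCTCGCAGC
rps-3: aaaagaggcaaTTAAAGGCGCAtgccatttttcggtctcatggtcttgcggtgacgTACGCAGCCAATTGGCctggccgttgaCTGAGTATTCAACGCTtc

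Stretches of this kind are partly what any promoters would share, and the background is given beside them. Of the 66 pairs of bound rps windows, 28 (42.4%) shared at least 8 letters, against 30.9% of the 98346 pairs among the 444 series peaks with a summit in a coding promoter window. A run of 11 letters or more was shared by 10 of the 66 pairs (15.2%), against 2.41% of all promoter pairs. The pairs overlap in their members, and the difference was not tested. Those that rps-24, rps-11 and rps-3 form with one another all share the same word, TTAAAGGCGCA, which is common in the genome and described below.

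The longest shared run was 19 letters, in the windows of rps-23 and rps-10. It is held within the last stretch of capitals in the rps-23 sequence. The run occurs at 6 places in the genome. Peaks of the larger list cover it before rps-23, before rps-10 and before pdtf-1 (signal 85.7), and none covers it near rpn-5, C08H9.16 or rpl-21. A run of 15 letters joined rps-19 and rps-3, with the third of its 3 genomic places near sucl-1 under no peak. Thus the same letters were found with and without a thresholded peak.

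Of the shared runs of 11 letters or more, TTAAAGGCGCA was held by the most members, namely rps-24, rps-11 and rps-3, all on the strand of the gene. Of the 444 promoter peak windows, 7 (1.58%) held it, and the others belonged to rbc-2, smc-3, eel-1 (signal 298) and the large-subunit gene rpl-38 (signal 68). None of the 18 strongest candidates of unbound rps genes held it. It is a common word, found at 2354 places in the genome, while an 11-letter word of the member windows had a median of 37 places and a 90th percentile of 236.1.

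Shorter words, read on both strands, were searched for in the same windows of 50 bp to each side of the 12 bound summits. The words ATCGAT and ATCAAT, forms of the site known for CUT proteins, were found in 0 of 12 and in 1 (rps-4), against 4.28% and 5.18% of promoter peak windows, and the related ATTAAT in 0, against 2.93%. The repeat word GAGAGA was found at rps-1 and rps-11 (17.3% of promoter peaks), CTGCGTC at rps-11 (8.33%) and TATAAA at none (3.6%). Words picked after the windows had been seen were held by 4 members each. They were TACGGTA (rps-23, rps-20, rps-1 and rps-10, against 6.08% of promoter peaks), CTGCGTA (rps-19, rps-20, rps-10 and rps-3, against 4.28%) and CGCTACG (rps-19, rps-23, rps-10 and rps-27, against 2.7%). They were also present in 2, 2 and 1 of the 18 unbound candidates. Since these last words were chosen for their presence, their counts describe the sites and support nothing further.

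The share of rps genes bound was above that of coding genes at large in each of the 4 lists. Genes with at least 1 ranked candidate summit in the window were the denominator. Of 30 such rps genes 12 were bound (40%, exact 95% interval 22.7 to 59.4%, counting error only), against 598 of 16131 coding genes (3.71%). In replicate 1, with its own candidates and its own thresholded list, 7 of 28 rps genes were bound (25%, interval 10.7 to 44.9%), against 2.31% of coding genes. In replicate 2, 8 of 28 were bound (28.6%, interval 13.2 to 48.7%), against 2.64%. Each replicate, by its own list, gave the call at rps-1, rps-19, rps-20, rps-23, rps-24 and rps-26.

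The authors' conservative list, also made from both replicates, gave 10 of 31 rps genes (32.3%, interval 16.7 to 51.4%), against 3.65%. It left out rps-3, rps-4 and rps-27, the 3 bound members with the lowest signals, and it added rps-25 (signal 53.4 at −311 bp). The members had been proposed with earlier results of these data known, so no test was made on these counts.

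**Figure D1:**
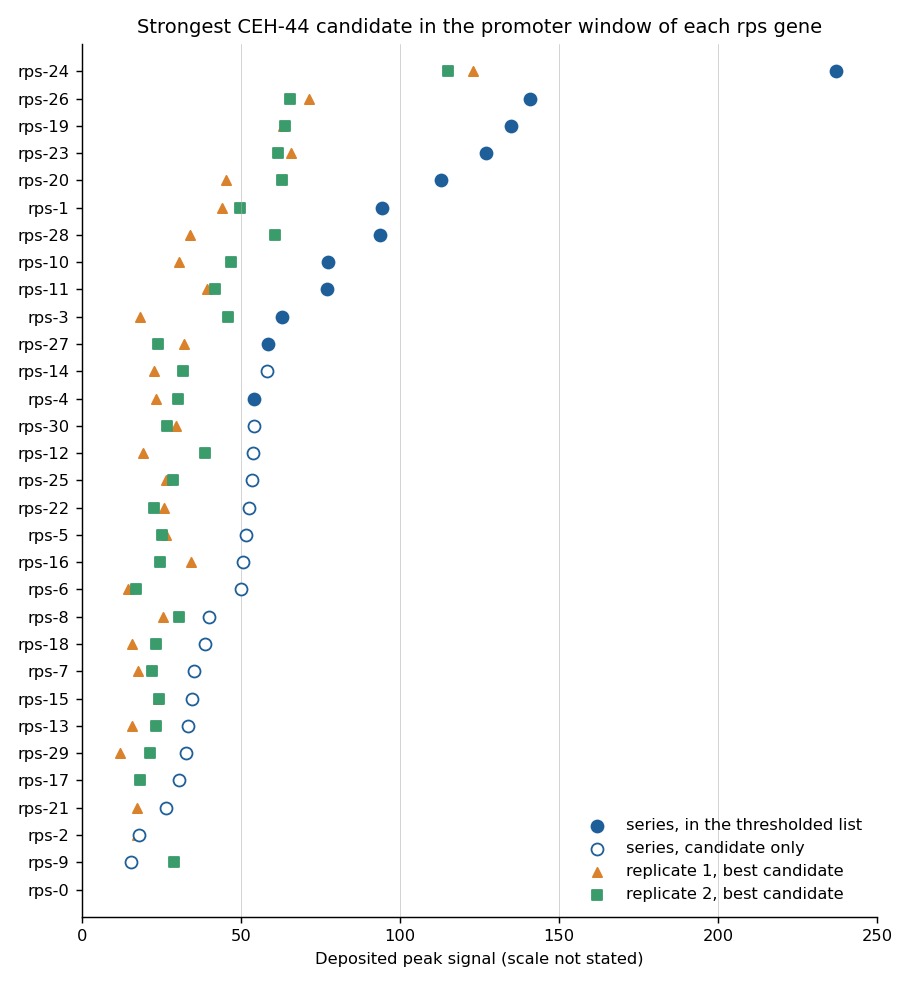
Deposited signal of the strongest candidate in the promoter window of each rps gene, with circles for the series, triangles for replicate 1 and squares for replicate 2. Filled circles mark genes in the thresholded list, which run from 54.1 at rps-4 to 237 at rps-24, and rps-0 has no candidate in the 3 lists plotted.

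The signal is the authors' value for each peak and its scale is not stated, so levels are compared only within a list. Ratios between the replicates' lists are given as description, and they include any difference in scale between the lists. The 4 strongest sites belonged to rps-24, rps-26, rps-19 and rps-23. At rps-24, whose human counterpart is among the genes mutated in Diamond-Blackfan anaemia, the signal was 237 in the series, 123 in replicate 1 and 115 in replicate 2. Its summit lay at −344 bp (chromosome IV, peak 385509 to 385644), and the peak ranked 14th of the 1027 in the list. Both replicates gave rps-24 the highest signal of any rps gene.

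The peak before rps-24 was also unlike the others in form. It was 136 bp wide, while the other 11 peaks were 256 bp wide, the width at 579 of the 598 bound coding genes. Of the 30-base words in the peak, 12.1% occurred elsewhere in the genome, in up to 61 copies, and over 256 bp around the summit 47.1% did (107 of 227 words). No such word was found in the other 11 peaks. The part of repeated sequence in the rps-24 signal was not tested.

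At rps-26, whose protein contacts messenger RNA near its exit from the subunit, the signal was 141 in the series, 71.2 in replicate 1 and 65.5 in replicate 2. The summit lay at −427 bp (chromosome I, peak 14759375 to 14759630). It was nearer to tmem-107, a gene for a protein of the ciliary transition zone, at −30 bp from that start, and the snoRNA gene F39B2.14 lay 91 bp away. This was the only one of the 12 peaks (8.33%) within 250 bp of a tRNA, snoRNA or snRNA gene, against 15.1% over all bound coding genes.

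At rps-19, another gene whose human counterpart is mutated in Diamond-Blackfan anaemia, the values were 135 in the series, 63.1 in replicate 1 and 63.7 in replicate 2, with the summit at −269 bp (chromosome I, peak 9625937 to 9626192). At rps-23, whose protein sits in the decoding centre, they were 127, 65.7 and 61.6, with the summit at −275 bp (chromosome IV, peak 12391200 to 12391455). The deposited values of the replicates differed by a factor of 1.01 at rps-19 and 1.07 at rps-23.

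The next 3 were rps-20, rps-1 and rps-28. The values at rps-20, a protein of the subunit's head, were 113 in the series, 45.1 in replicate 1 and 63.0 in replicate 2, at −248 bp (chromosome I, peak 14469223 to 14469478). At rps-1 they were 94.2, 44.1 and 49.7, at −264 bp (chromosome III, peak 4475526 to 4475781). At rps-28 they were 93.7, 33.9 and 60.6, at −429 bp (chromosome IV, peak 1659134 to 1659389). The peaks of rps-20 and rps-1 were in both replicates' lists, while that of rps-28 was in the list of replicate 2 alone and its candidate in replicate 1 was 1.79 times weaker.

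Of the remaining 5, none was in both replicates' lists. At rps-10 the values were 77.2 in the series, 30.6 in replicate 1 and 46.7 in replicate 2, at −358 bp (chromosome I, peak 4584735 to 4584990). At rps-11 they were 77.0, 39.3 and 41.9, at −367 bp (chromosome IV, peak 11602146 to 11602401). At rps-3, whose protein stands where messenger RNA enters, they were 62.9, 18.2 and 46, at −356 bp (chromosome III, peak 6206319 to 6206574). Replicate 1 alone listed rps-11, replicate 2 alone listed rps-3, and neither listed rps-10. The 2.53-fold gap at rps-3 was the widest between replicates among the 12 peaks.

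The weakest were rps-27 and rps-4. At rps-27, a zinc-binding protein, the values were 58.6 in the series, 32.1 in replicate 1 and 23.0 in replicate 2, at −606 bp (chromosome V, peak 104555 to 104810). At rps-4 they were 54.1, 23.1 and 30.1, at −242 bp (chromosome IV, peak 7084796 to 7085051). Neither was in a replicate's own list, and both calls rest on the joint analysis of the replicates.

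Both replicates' own lists held 6 of the 12 (50%), against 175 of 598 bound coding genes (29.3%), and neither held 3 (25%), against 33.9%, a difference that was not tested. The median series signal of the 12 was 93.9 (quartiles 73.5 and 129), against 80.1 (quartiles 66.4 and 106) over all bound coding genes. Between replicates, 9 of the 12 peaks differed by less than a factor of 1.5. Replicate 2 was the higher at 8 and replicate 1 at 4. These counts were not made for all bound coding genes. The median strongest candidate of all coding genes was also higher in replicate 2 (16.5 against 13.8). With 2 replicates no error can be set on these signals beyond the pair of values, and the read depth is not given in the sources used here.

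**Figure D2:**
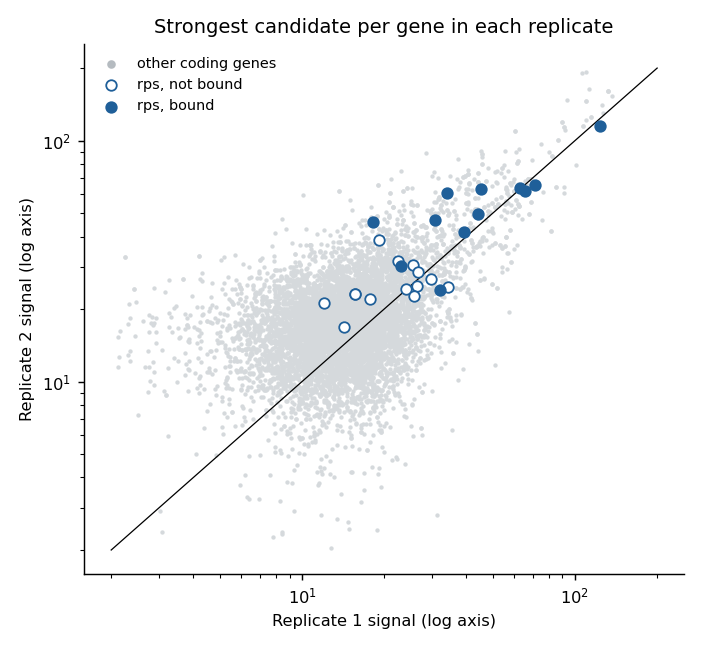
Signal of the strongest candidate in each gene's window in replicate 1 (horizontal) and replicate 2 (vertical), both on log axes, for genes with a candidate in both, with the line of equality. The 12 bound rps genes (filled) run from 18.2 to 123 in replicate 1 and from 23.9 to 115 in replicate 2, and the unbound rps genes (open) run from 12 to 34.2 and from 16.9 to 38.6.

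The plot of replicate against replicate takes the strongest candidate anywhere in the window, which for rps-27 in replicate 2 is not the one under the series peak (23.9 against 23.0). Across the 26 rps genes with a candidate in both replicates, Pearson's r of log2 signal was 0.83 and Spearman's rho 0.78. Across all 8107 coding genes of that kind they were 0.47 and 0.37. These are correlations across genes, which share libraries and are not replicates. All 12 bound members are among the 26, and their list was thresholded on repeatability between the replicates. Correlations without bound genes were not computed. For some genes the values of the replicates come from different sites, as at rps-8 (−947 bp in replicate 1 and −286 bp in replicate 2) and rps-15 (+190 and −374 bp). The median strongest candidate of the rps genes was 26.1 in replicate 1 and 29.5 in replicate 2, against 13.8 and 16.5 for coding genes.

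The rps genes that were not called bound also had candidates above the usual level. Their 18 strongest candidates had a median signal of 39.3 (quartiles 33 and 52.3, range 15.4 to 58.1), against 23.3 (quartiles 17.1 and 30.5) for the 15533 unbound coding genes. Of the 18, 16 exceeded the median of all coding genes (23.8), 14 exceeded its upper quartile (31.6) and 8 exceeded its 90th percentile (42). Over bound and unbound members together the median was 53.6 (quartiles 36.2 and 77.2), and 28 of 30 exceeded the coding median.

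**Figure D3:**
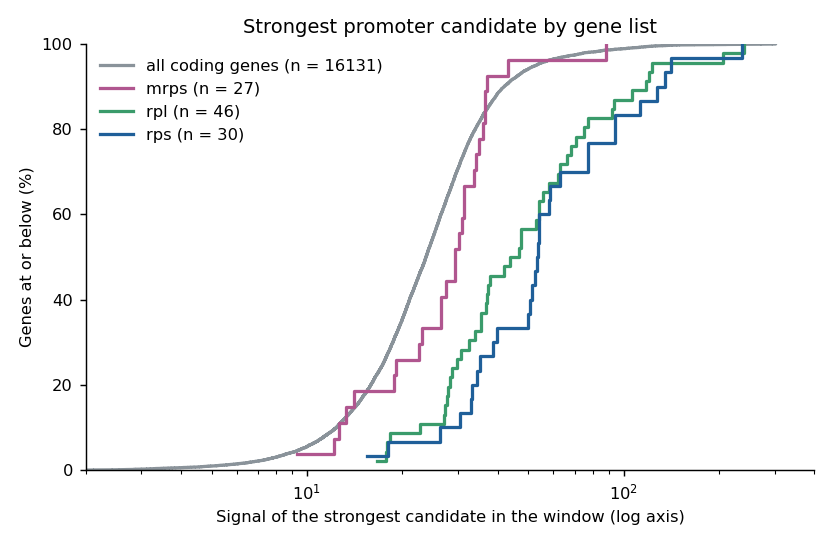
Cumulative share of genes (vertical, percent) by the signal of the strongest candidate in the promoter window (horizontal, log axis). The curve of the rps genes (median 53.6) and that of the rpl genes (median 45.4) lie to the right of the mrps genes (median 29.4) and of all coding genes (median 23.8).

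Some unbound rps genes stood just outside the list. Peaks in it all had a −log10 irreproducible discovery rate (IDR, the expected share of calls at that rank or better that do not repeat) of at least 2. Just inside were rps-27 with 2.12 and rps-3 with 2.23, while rps-24 had 4.91. Just outside were rps-15 with 1.86 and rps-5 with 1.81. In all, 7 unbound members lay between 1 and 2, down to 1.11 at rps-25, and unbound coding genes in that range were not counted. The median was 0.75 for unbound rps genes, against 0.22 for unbound coding genes. Signal and repeatability did not give the same order, since the strongest unbound candidate, rps-14, had a signal of 58.1 and a −log10 IDR of 0.88.

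Of the 6 unbound genes with the highest candidates, rps-14 had a higher series signal than the bound rps-4 (54.1), and the other 5 lay below every bound member. The replicate values given for unbound genes are the best in the window and need not lie at the series summit. At rps-14, whose human counterpart is lost in 5q deletions of bone marrow cells, the series candidate was 58.1 at −261 bp, and the best candidates of the replicates were 22.5 and 31.6. At rps-30, which in mammals is made as a fusion with a ubiquitin-like protein, they were 54.0 at −218 bp, 29.6 and 26.6. At rps-12 they were 53.8 at −171 bp, 19.2 and 38.6. These signals lay close to that of rps-4.

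At rps-25 the series candidate was 53.4 at −311 bp, with 26.5 in replicate 1 and 28.6 in replicate 2, and this is the one that the conservative list called. At rps-22 it was 52.6 at −874 bp, with 25.8 and 22.6. At rps-5, whose protein lies near the exit of messenger RNA, it was 51.4 at −362 bp, with 26.4 and 25. None of these 6 genes was bound in a replicate's own list.

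The lowest were rps-21, rps-2 and rps-9. At rps-21 the series candidate was 26.3 at −277 bp, with 17.4 in replicate 1 and none in replicate 2. At rps-2 it was 18.0 at +6 bp, with 17.1 in replicate 1 and none in replicate 2. At rps-9 it was 15.4 at −250 bp, with none in replicate 1, and the best candidate of replicate 2 (28.8) lay elsewhere, at +142 bp. Thus each of the 3 had a candidate in 1 replicate alone, and rps-2 and rps-9 were the only rps genes under the coding median. The gene rps-0 had no candidate in its window in the ranked list behind the larger series list or in that of either replicate, and the nearest on each side in the former were at +260 bp (signal 26.1) and −1488 bp (signal 40.1). The ranked list behind the conservative list held 2 in its window, at −263 bp (signal 4.58) and −53 bp (signal 9.69), which is why all 31 rps genes were counted there.

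The other unbound members were rps-6, rps-7, rps-8, rps-13, rps-15, rps-16, rps-17, rps-18 and rps-29. Of these, rps-16 adjoins a bound gene. It starts 110 bp beyond the end of fib-1 on the same strand, and fib-1, the gene of the fibrillarin methylase that modifies ribosomal RNA, had a peak at −79 bp (signal 97, with 42.9 in replicate 1 and 52 in replicate 2). The strongest candidate in the window of rps-16 itself was 50.5 at +46 bp, with a −log10 IDR of 0.18.

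The bound summits gathered in a narrow band upstream. Their median position was −350 bp (quartiles −382 and −267.75), against −291 bp (quartiles −513.75 and −162.25) for all bound coding genes. The band from −450 to −200 bp, drawn after the positions had been seen, held 11 of 12 bound rps summits (91.7%), against 220 of 598 (36.8%). The exception was rps-27 at −606 bp. Of the strongest candidates of unbound rps genes, 8 of 18 (44.4%) lay in the band, against 21.8% of those of unbound coding genes. This difference was not tested. All 12 bound summits lay outside coding genes, a share that was not computed for all bound coding genes. The median GC content of the peaks was 39.5%, against 42.2% over all bound coding genes.

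**Figure D4:**
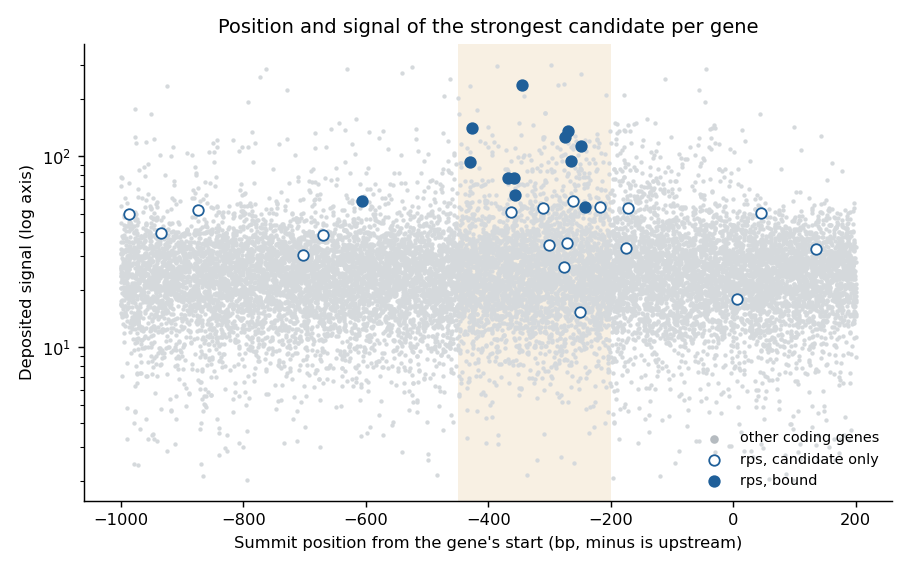
Position of the strongest candidate summit from the gene's start (horizontal, bp, minus is upstream) and its deposited signal (vertical, log axis), for rps genes (filled, bound, and open, not bound) and other coding genes (grey). The shaded band from −450 to −200 bp, drawn after seeing the positions, holds 11 of the 12 bound rps summits.

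Most of these peaks also lay before a second gene. The summit fell in the window of another coding gene at 9 of 12 bound rps genes (75%), against 320 of 598 bound coding genes (53.5%). At 8 of the 9 that gene ran on the opposite strand, so the peak sat between 2 divergent starts. That share was not computed for all bound coding genes. The rps start was the nearest coding start at 5 of the 12 (41.7%), namely rps-24, rps-28, rps-1, rps-11 and rps-4, against 70.6% over all bound coding genes. When each summit was given to its nearest start alone, 5 of 25 rps genes were bound (20%, interval 6.83 to 40.7%), against 2.92%.

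The partners have varied roles. The summit of rps-10 lay nearer to rpl-24.1, a large-subunit gene, at −252 bp, so this peak stands between genes of both subunits. That of rps-23 lay at −259 bp from dpm-3, a subunit of dolichol-phosphate mannose synthase, nearly midway between the 2 starts. That of rps-1 lay at −504 bp from ifet-1, a repressor of translation, which was the farther start. The others were hsr-9 (−176 bp, with rps-19), ekl-4 (−149 bp, with rps-20), sna-3 (−236 bp, with rps-3), picd-1 (−142 bp, with rps-27) and, on the same strand, Y41D4B.4 (−848 bp, with rps-28). Only rps-24, rps-11 and rps-4 had a peak in no other coding window. Which of the paired genes a peak serves cannot be told from the peak lists.

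**Figure D5:**
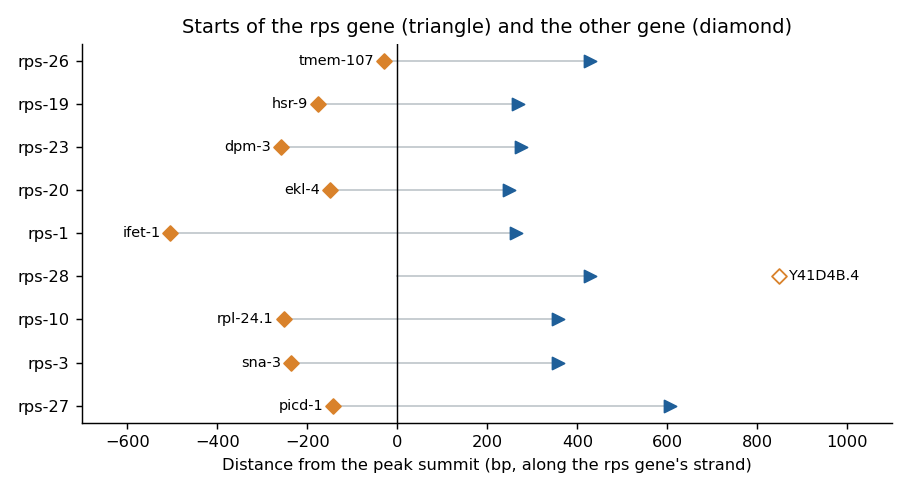
Distance in bp, along the strand of the rps gene, from the peak summit (vertical line at 0) to the start of the rps gene (triangle) and of the other coding gene (diamond, open where it is on the same strand), for the 9 shared peaks. The other start is nearer the summit in 7 of the 9, the exceptions being rps-1 and rps-28.

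The upstream gene ran on the opposite strand at 22 of the 31 rps genes (71%), against 45.4% of coding genes, a difference that was not tested. This was so at 10 of 12 bound and 12 of 19 unbound members. The median gap to that gene, on either strand, was 601 bp (397 to 14393) for bound and 499 bp (110 to 14085) for unbound members, against 1160 bp for coding genes. By chromosome, 5 of 10 members were bound on IV, 4 of 8 on I, 2 of 9 on III, 1 of 3 on V and 0 of 1 on II, and none of the 31 genes is on X. The share of coding genes bound on each chromosome was not computed, so no difference between chromosomes is read from these small counts.

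Other genes of translation were counted in the same way. Of the large-subunit rpl genes 14 of 46 with a candidate were bound (30.4%, interval 17.7 to 45.8%), with a median signal of 92.5 and a median position of −332.5 bp, close to the 93.9 and −350 bp of the rps genes. The intervals of the rps and rpl shares overlap widely, and the peak between rps-10 and rpl-24.1 counts in both lists. Of the mitochondrial small-subunit mrps genes 1 of 27 was bound (3.7%, interval 0.0937 to 19%), mrps-35 with a signal of 87.8 at −135 bp, which is the level of coding genes at large. Of the 3 genes of the acidic stalk (rla) 0 were bound, which allows a share of up to 70.8%.

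Among genes whose products meet the small subunit, rack-1, a scaffold protein on its head, and ubl-1, which encodes a ubiquitin fusion with a small-subunit protein, were both unbound. Of 17 initiation factor genes 3 were bound (17.6%, interval 3.8 to 43.4%), all coding for subunits of the factor eIF3. They were eif-3.B (signal 92.3 at −236 bp), eif-3.E (82.3 at −149 bp) and eif-3.C (62.2 at −173 bp), and none was in both replicates' lists. Genes of eIF3 subunits make up most of the 17, so no preference among initiation factors is read from these 3. Of 7 assembly genes with a candidate 1 was bound (14.3%, interval 0.361 to 57.9%), fib-1, which was in both lists.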

How the data were processed

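Per the labels and the deposited file descriptions, ChIP-seq peaks of 2 replicates were given on ce11, as a ranked and a thresholded list for each replicate and, from both together, 2 of each for the series. The sources used here do not name the aligner, the peak caller, the depth or the signal scale. Per the deposited descriptions, control-derived files entered the thresholded lists; the control itself was not analysed here. Signal values were used as the authors deposited them. The deposited −log10 of the global irreproducible discovery rate was at least 2 (a rate of 0.01) for every thresholded peak.

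Genes came from Ensembl release 115 (WBcel235, the same sequence as ce11) and sequence from the RefSeq genome. A summit counted for each coding gene whose window, 1000 bp upstream to 200 bp downstream of the most upstream start, held it. Series and replicate peaks matched when they overlapped by at least 1 bp. Repeats were 30-base words with a second copy. Intervals are exact Clopper-Pearson 95%. Python 3.11.15, numpy 2.4.6, pandas 2.3.3 and scipy 1.17.1 were used, and the window search was checked on simulated data.

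The members and lists were chosen with earlier results of these data known, so no p-value is given. The rule for named genes took all bound rps genes, the 6 highest and 3 lowest unbound ones, and bound genes of the other lists. The assembly list as written held nob-1 and tsr-1, whose annotation gives other functions, and these were dropped. The names dimt-1, ltv-1 and eif-5 were not matched, and iftb-1 was read as eif-2beta. Alternatives were the other lists, each replicate's own list, stricter peaks, other windows, assignment to the nearest start, and leaving out peaks near small RNA genes.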

Additional observations from a re-analysis of the deposited data

How the results depend on the processing

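The 12 bound rps genes became 10 in the conservative list, 9 with peaks at or above the list's median signal, 11 with 500 bp upstream, 13 with 2000 bp upstream, 12 with any base of the peak or with the first coding base as the reference, and 11 without peaks near small RNA genes. In the lists of single replicates the count was 7 to 8, the share of rps genes 25 to 28.6% and that of coding genes 2.31 to 2.64%. Without replicate 2, the count fell to 7 and rps-3, rps-4, rps-10, rps-27 and rps-28 were lost. Assignment to the nearest start gave 5 rps genes (20%), because 7 of the 12 summits lay nearer another start. The share of all coding genes, 3.71% at first, was 2% with the stronger peaks, 3.42% and 4.64% with 500 and 2000 bp upstream, 2.92% with the nearest start and 3.16% without peaks near small RNA genes. The gene added at 2000 bp was rps-16, whose longer window takes in the peak before fib-1. The gene lost without peaks near small RNA genes was rps-26. The median signal of bound rps genes was 93.7 to 113, their median position −344 to −369 bp, and the number in both replicates' lists 6, over the alternatives run for each. No paired analysis was possible because there is only 1 group. The band from −450 to −200 bp, the shared stretches and the last 3 words were chosen after seeing the data. With no read depth or control data, no interval can be set on a signal, and a gene with no peak is not shown to be unbound.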
